A study of Mus musculus with 24 samples.

Results

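Cytosolic ribosomal protein genes were taken from the deposited count table by symbol: Rpl or Rps followed by a digit, with Rplp0, Rplp1, Rplp2 and Rpsa, and without the Rps6k kinases. The rule used no measured value and found 91 of the 11590 genes. Of these, 77 encoded canonical proteins, 46 of the large and 31 of the small subunit. The other 14 members, classed by symbol, were 6 like-named paralogs (Rpl7l1, Rpl22l1, Rpl32l, Rpl36al, Rps4l and Rps27l), 2 retrogenes (Rpl37rt and Rps27rt), 5 pseudogenes and Rps19bp1. The RefSeq annotation differs for some: it lists Rps4l as a transcribed pseudogene, and Rpl34-ps1, classed here as a pseudogene, as protein-coding. Rps19bp1 encodes a protein that binds RPS19 and is not itself a ribosomal protein, so the symbol rule is slightly wider than its name.

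The genes were measured by stranded mRNA sequencing in macrophages derived from the bone marrow of male C57BL/6 mice. Marrow cells had been grown with M-CSF, the growth factor that drives macrophage differentiation, until day 7. The 6 groups were GPR35-deficient (KO) cells with LPA, with LPS or untreated (Cont), and wild-type (WT) cells with LPA, with LPS or untreated, with 4 libraries each and 24 in all. LPA (lysophosphatidic acid, 10 µM) and LPS (lipopolysaccharide, the bacterial ligand of TLR4, 10 ng/mL) were given for 4 h, and GPR35 is a G protein-coupled receptor for which LPA is a proposed ligand. The labels do not say which allele removed the receptor or whether replicates came from separate animals, so p-values measure the spread between these libraries, which may be technical.

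A cytosolic ribosome holds 1 copy of nearly every ribosomal protein, and the genes for them are usually expressed together. Their mRNAs begin with a tract of pyrimidines (C or T in the gene) right after the cap, the TOP motif, through which mTORC1 and LARP1 set how actively they are translated. This control acts on translation, which RNA counts do not measure. Mammalian genomes also carry many intronless copies of these genes, most of them silent pseudogenes, so short reads from a ribosomal protein mRNA often match several places.

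The coding sequences show how close such copies can be. The first 51 bases, the length of a read, are given for a retrogene whose reads match its parent and for like-named genes whose reads do not (from the GENCODE vM21 annotation of GRCm38; capitals mark bases that differ from the first gene of each set).
Rps27 (gene at chr3:90212667-90213648, minus strand): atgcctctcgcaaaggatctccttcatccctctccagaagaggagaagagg
Rps27rt (gene at chr9:114982366-114982739, minus strand): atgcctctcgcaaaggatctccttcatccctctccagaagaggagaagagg
Rps27l (gene at chr9:66944624-66949522, plus strand): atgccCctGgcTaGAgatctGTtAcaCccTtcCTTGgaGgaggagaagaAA
Rpl36a (gene at chrX:134585654-134588062, plus strand): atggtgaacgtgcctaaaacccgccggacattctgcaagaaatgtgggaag
Rpl36al (gene at chr12:69182734-69184067, minus strand): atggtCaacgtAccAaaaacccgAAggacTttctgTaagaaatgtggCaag
The retrogene Rps27rt matched Rps27 in all 255 coding bases. Rps27l differed from Rps27 at 17 of these 51 bases and matched it at 76.1% of the coding sequence, and Rpl36al differed from Rpl36a at 8 and matched it at 87.9%. Neither like-named gene shared a 51-base stretch with its partner, so a read from one could be told from the other.

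Around the annotated start, 49 of the 65 members with a RefSeq promoter sequence held a run of 8 or more C or T on the transcribed strand, between 20 bases before and 50 bases after the start (75.4%). The same search found one in 27.0% of 9145 other genes of the table and in 28.5% of all 27025 genes with a promoter sequence. Where a gene had several promoter sequences, the one with the longest run was taken. The 30 bases around the run, or around the annotated start where no run was found, are given for some of the members whose LPS changes are described below (GRCm38.p6; capitals mark the run).
Rpl13a (chr7:45128722-45128751, minus strand): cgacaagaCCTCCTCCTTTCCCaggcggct
Rpl10a (chr17:28328572-28328601, plus strand): aagcgctctgCCTTCTTTCCggtttccgcg
Rpl12 (chr2:32961732-32961761, plus strand): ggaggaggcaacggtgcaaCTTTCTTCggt
Rps15 (chr10:80292446-80292475, plus strand): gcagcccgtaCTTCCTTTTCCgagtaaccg
Rpl36al (chr12:69184020-69184049, minus strand): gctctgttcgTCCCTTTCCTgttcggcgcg
Rpl22 (chr4:152324421-152324450, plus strand): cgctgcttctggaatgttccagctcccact
Rpl24 (chr16:55966260-55966289, plus strand): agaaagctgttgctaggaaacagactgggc
Rpl27 (chr11:101442230-101442259, plus strand): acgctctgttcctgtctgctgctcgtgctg
Rpl7l1 (chr17:46782642-46782671, minus strand): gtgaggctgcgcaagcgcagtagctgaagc
Rps19bp1 (chr15:80264292-80264321, minus strand): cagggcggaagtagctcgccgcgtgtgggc
Counted from the annotated start, the printed runs began at base 3 in Rpl13a, 18 in Rpl10a, 26 in Rps15, 29 in Rpl36al and 40 in Rpl12. Most of them thus lie downstream of that start and not right after it, where a TOP motif lies. Such a run is a match of letters near an annotated start, not a measured TOP motif, and a gene without one may start elsewhere in these cells.

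The libraries held 15167683 to 21461866 counts in KO, sequenced on 1 lane, and 31985119 to 46697165 in WT, sequenced on 2 lanes, so depth and lane cannot be told apart from genotype. Gpr35 lay at 0 to 0.205 CPM (counts scaled to library size and TMM factor) over all KO libraries, against 0.296 to 2.78 CPM in WT. All 10 macrophage markers were in the table, with a summed level of 31500 to 48009 CPM, while 8 of 9 neutrophil and precursor markers summed to 168.8 to 534.9 CPM. Of 8 T, NK and B cell markers only Cd4 was in the table, at 26.6 to 42.5 CPM in KO LPS and 29.2 to 37.6 CPM in WT LPS libraries, against 62.7 to 88.9 CPM in untreated KO and 75.5 to 92.5 CPM in untreated WT. Of 5 stromal markers 3 were, with a sum of 8.40 to 11.1 CPM in KO LPS and 8.97 to 23.5 CPM in WT LPS libraries, against 1.47 to 2.81 CPM in untreated KO and 2.29 to 5.10 CPM in untreated WT. Their part in the LPS results was not tested. The markers for dendritic cells, erythroid cells and mast cells were not in the table.

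The 91 genes together took a small share of the counts, and the share was lowest with LPS in both genotypes. In KO cells it averaged 1.38 ± 0.138% with LPA and 0.919 ± 0.0681% with LPS, against 1.41 ± 0.130% untreated (SD, n = 4 each). In WT cells it averaged 1.22 ± 0.0722% with LPA and 0.878 ± 0.0322% with LPS, against 1.38 ± 0.0664% untreated. All LPS libraries lay below all untreated ones of their genotype, whereas the LPA libraries overlapped them in KO and, with WT LPA replicate 3 at 1.31% and WT Cont replicate 1 at 1.31%, touched them in WT. A share of counts also moves with the other transcripts: the TMM factors, which correct for composition, were 0.739 to 0.840 in LPS libraries and 1.06 to 1.18 in the rest. On TMM-scaled values, the median LPS change was -0.13 in KO and -0.10 in WT on the log2 scale. By library totals alone it was -0.63 in KO and -0.66 in WT, but then the median of all genes was itself at -0.55 in KO and -0.59 in WT. Set against the median of all genes, the members' median LPS change was -0.078 (TMM) and -0.079 (totals) in KO and -0.064 (TMM) and -0.066 (totals) in WT. In bulk RNA, fewer cells of a type and less RNA per cell cannot be told apart.

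**Figure D1:**
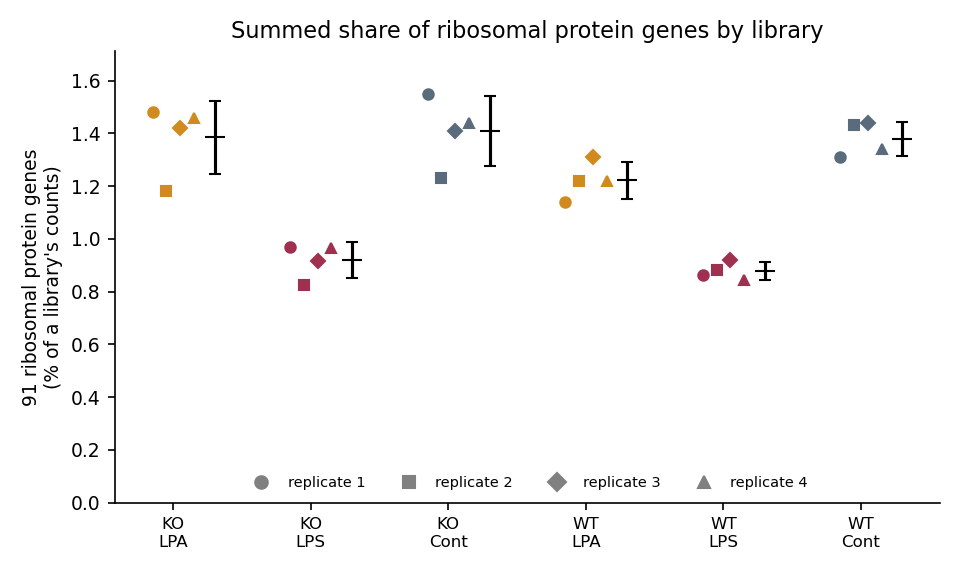
Summed share of the 91 ribosomal protein genes in each of the 24 libraries (y axis, percent of the library's counts; x axis, groups; symbols mark replicate numbers; bars are mean ± SD). LPS libraries lie lowest in both genotypes, and replicate 2 is the lowest of the 4 libraries in each KO group.

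KO replicate 2 stood apart from the other KO libraries for these genes in all 3 conditions. In the untreated library of that replicate all 77 canonical genes lay below the mean of the other 3 libraries, by a median of -0.19 on the log2 scale. With LPA 75 of 77 lay below, by a median of -0.26, and with LPS 67 of 77, by -0.13. The median over all genes in the same 3 libraries was 0.015, 0.023 and 0.026, and 796 non-member genes with a deposited length under 1000 bases had medians of 0.012, 0.019 and 0.044. KO replicate 1 lay the other way, with 2, 2 and 6 of 77 canonical genes below the others (untreated, LPA, LPS). Single WT libraries deviated too. In WT LPS replicate 3 only 3 of 77 lay below, with a median of 0.15, in WT LPS replicate 4 74 did (-0.090) and in WT Cont replicate 4 70 did (-0.060). The counts of calls in comparisons with KO libraries are given with and without KO replicate 2 where they changed. The KO replicate 1 and WT libraries were left out one at a time, and what set any of these libraries apart was not tested.

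Levels per deposited gene length ran over a wide range, although ribosomes carry the proteins in near-equal numbers. The mean over all 24 libraries was 830.8 CPM per kb for Rps9, 715.0 for Rplp1 and 581.2 for Rpl32, and 2.87 for Rps4l, 3.70 for Rpl28 and 4.63 for Rps23. The median member had 106.3 CPM per kb, against 8.92 for the median gene of the table, and 88 of the 91 members lay above the median gene. Every member had reads in every library, the fewest being 21 counts of Rps23.

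The level of a canonical member varied with how much of its coding sequence could be told from other genes. Of the 77, 76 shared at least one 51-base stretch with another gene of the annotation, a median of 9 other genes, and 26 held no stretch of their own. Those 26 had a median of 61.6 CPM per kb, from 3.70 to 530.1. The 10 genes with more than 50% of their stretches unshared had a median of 443.0, from 47.2 to 830.8. Rpl28 and Rps23, both with no unshared stretch, were the lowest canonical genes. Rpl41 at 530.1, also with none, and Rpl22 at 47.2 with 70.3% unshared went against this order. The Rpl22 level is divided by a deposited length of 2497 bases, of which 387 are coding. The median deposited length of the canonical members is 710 bases, so the length itself lowers the Rpl22 value. Across the 77 genes Spearman's rho between level and unshared share was 0.57, a description over genes that share libraries and read length. How the counting treated reads with several matches is not given in the sources used here, so a low level of a ribosomal protein gene here is a low count, not a measure of scarce mRNA. Changes between groups compare the counts under one name, which may hold reads of other genes too. Such a change need not be that of the named gene alone.

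**Figure D2:**
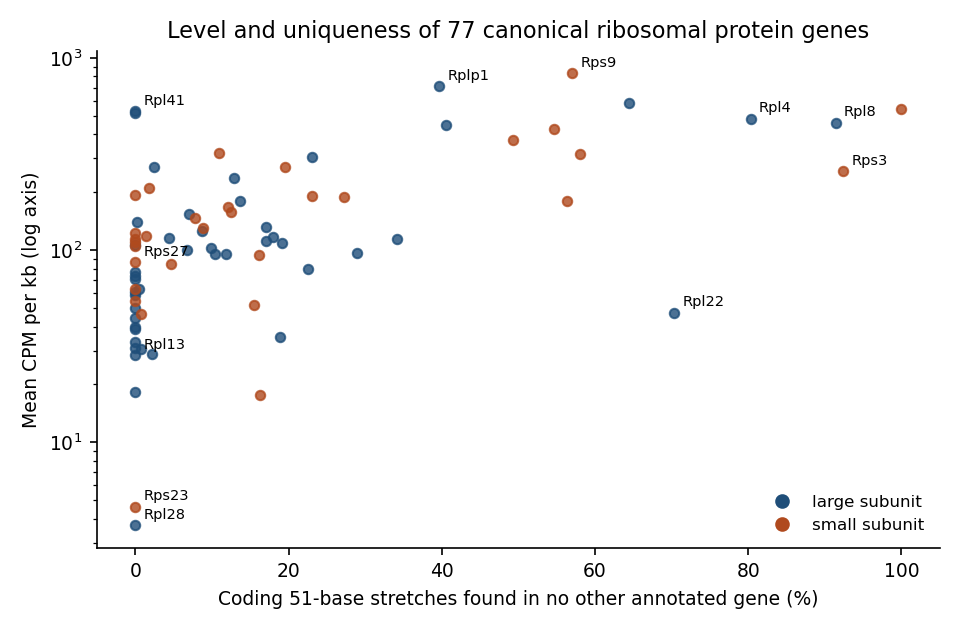
Mean level of the 77 canonical genes (y axis, CPM per kb on a log axis) against the percentage of their coding 51-base stretches found in no other annotated gene (x axis); blue points are large and orange points small subunit genes. Genes with more than 50% unshared stretches have a median of 443.0 CPM per kb and those with none 61.6.

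Copies and parents differed in how their counts went together. Rps27rt had 0.986 to 0.996 counts per count of Rps27 over the 24 libraries. Rpl34-ps1, which matches Rpl34 at 352 of 354 coding bases, had 0.980 to 0.995 counts per count of Rpl34. Their ratio varied less than counting noise allows for separate reads, with a chi-square per degree of freedom of 0.00403 for Rps27rt and 0.0108 for Rpl34-ps1. The values of such a pair were therefore nearly the same measurement listed under both names, although both names are among the 91 members counted. Rpl37rt had 5.47 to 6.84 counts per count of Rpl37 and Rpl14-ps1 2.91 to 3.49 per count of Rpl14, so that the copy held more counts than the canonical gene. Rps15a-ps4, Rps15a-ps6 and Rps19-ps3 stayed within 0.453 to 0.553, 0.263 to 0.323 and 0.072 to 0.095 of their parent's counts. These copies are uncertain as separate genes.

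**Figure D3:**
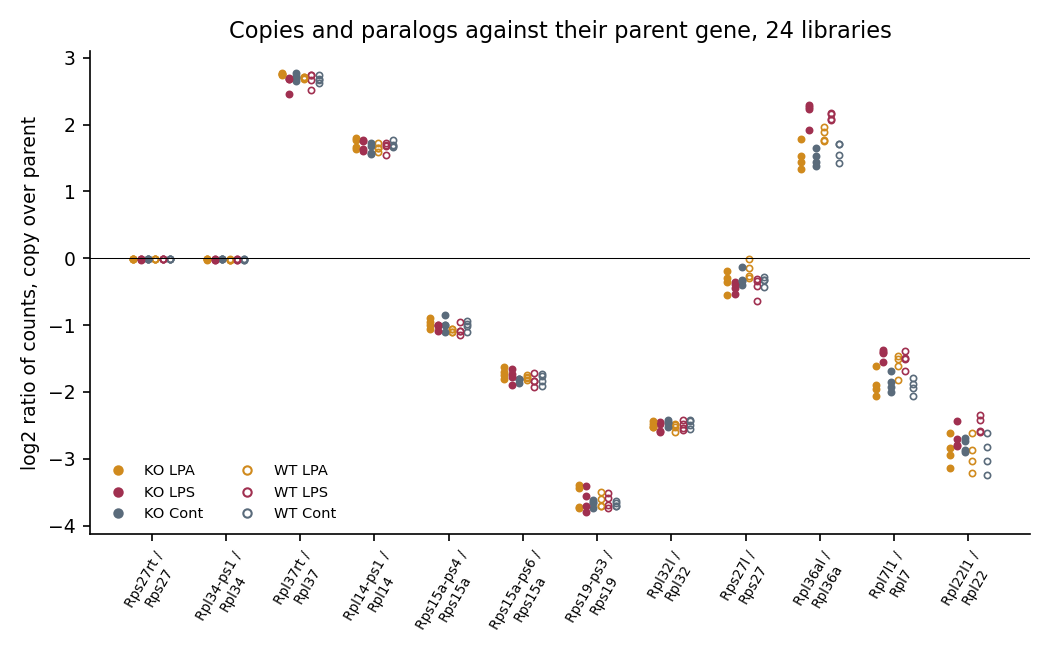
Log2 ratio of the counts of 12 copies and paralogs to those of their parent or partner (y axis) in each of the 24 libraries (points, filled for KO and open for WT, coloured by treatment; x axis, pairs). Rps27rt and Rpl34-ps1 lie on the line of equal counts in every library, while Rpl36al and Rpl7l1 shift with treatment.

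With LPA in WT cells most ribosomal protein genes had slightly lower values than in untreated cells, but few single genes passed the test. Of the 91 members 85 had a log2 change below 0, with a median of -0.12, against -0.007 for all genes (library totals: -0.17, against -0.060). By edgeR's quasi-likelihood test with Benjamini-Hochberg adjustment, 5 members passed (1 higher and 4 lower), or 5.49%, against 44.6% of all genes (23.5% higher and 21.1% lower), as the plot of treatment effects shows. Rpl22 fell by 0.17 ± 0.055 on the log2 scale (SE; adjusted p = 0.018), Rpl18 fell by 0.15 ± 0.061 (adjusted p = 0.0492), Rpl7a fell by 0.15 ± 0.059 (adjusted p = 0.0466) and Rpl15 fell by 0.12 ± 0.048 (adjusted p = 0.0466), all 4 encoding large subunit proteins. All 4 LPA libraries lay below all untreated libraries for 29 members (31.9%) and for 16.9% of all genes. The 796 short non-member genes had a median change of 0.012. Among replicates, same-numbered WT libraries with and without LPA deviated together. With the number as a block, in a fit of these groups alone, 43 members passed, 40 lower and 3 higher, against 49.1% of all genes. The same fit without the block, given in the section on processing, called fewer members but more than the main fit, so the block is only part of this rise. The single calls depended on single libraries: without 1 library the count ran from 1 (without WT LPA replicate 1 or WT Cont replicate 3) to 13. It was 2 without WT Cont, WT LPA or WT LPS replicate 2, WT LPS replicate 4 or KO LPA replicate 3, and 3 without WT Cont or WT LPA replicate 4, KO Cont or KO LPS replicate 3 or KO Cont replicate 4. It was 8 without WT Cont replicate 1, 11 without WT LPA replicate 3 or KO Cont replicate 2 and 13 without KO LPA replicate 2. Without all 3 KO replicate 2 libraries, which enter through the shared estimate of spread, it was 31, against 47.2% of all genes. Median-ratio factors left 2 members, and Rpl18, Rpl7a and Rpl15 did not pass (edgeR, adjusted p = 0.0546, 0.053 and 0.0555), and Rpl22 did not pass after thinning to equal depth (edgeR, adjusted p = 0.0673).

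Rpl7l1 was the only member to pass upward with LPA in WT cells. It encodes an RPL7-like protein of ribosome assembly (chromosome 17, 46773907 to 46782656, GRCm38.p6). Its level was 90.8, 92.2, 81.5 and 87.9 CPM in WT LPA libraries, against 80.6, 78.5, 74.5 and 78.2 CPM in untreated WT libraries, and every LPA library lay above every untreated one. The log2 change was 0.18 ± 0.044 (edgeR, adjusted p = 0.00282). Rpl36al had a change of 0.14 ± 0.068 (edgeR, adjusted p = 0.101) and Rps19bp1 one of 0.25 ± 0.105 (edgeR, adjusted p = 0.0556). With the replicate block Rpl36al passed (edgeR, adjusted p = 0.048), as did Rps19bp1.

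In KO cells no member passed the test for LPA by edgeR or DESeq2, where 2.62% of all genes did, and 2 members had an unadjusted p below 0.05. Still, 83 of the 91 had a log2 change below 0, with a median of -0.055, against -0.009 for all genes, and the 796 short non-member genes had -0.045. Same-numbered libraries deviated together here too, and with the block 1 member passed, against 12.1% of all genes: Rpl36al, at -0.14 ± 0.040 (edgeR, adjusted p = 0.032). The LPA effect differed between genotypes for 2 members (2.20%), against 28.5% of all genes. Rpl36al differed by -0.29 ± 0.098 (edgeR, KO minus WT, adjusted p = 0.0309) and Rpl7l1 by -0.23 ± 0.063 (edgeR, adjusted p = 0.0109). The Rpl7l1 level was 74.7, 78.9, 77.3 and 75.7 CPM in KO LPA libraries, against 77.2, 84.8, 77 and 78.6 CPM in untreated KO libraries, and these groups overlapped. With the block, 4 members differed, against 41.7% of all genes, among them Rpl7l1 and Rpl36al downward, as before, and Rpl13a upward. By library totals no member differed (Rpl7l1 adjusted p = 0.0846, Rpl36al adjusted p = 0.123, both edgeR), and 1 member was left without any of WT LPA replicate 2, WT Cont replicates 3 and 4, KO Cont replicates 1 and 4 and KO LPA replicate 3. The median difference of all 91 members was 0.069 and of all genes 0.007, and no test of the list as a whole was made.

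**Figure D4:**
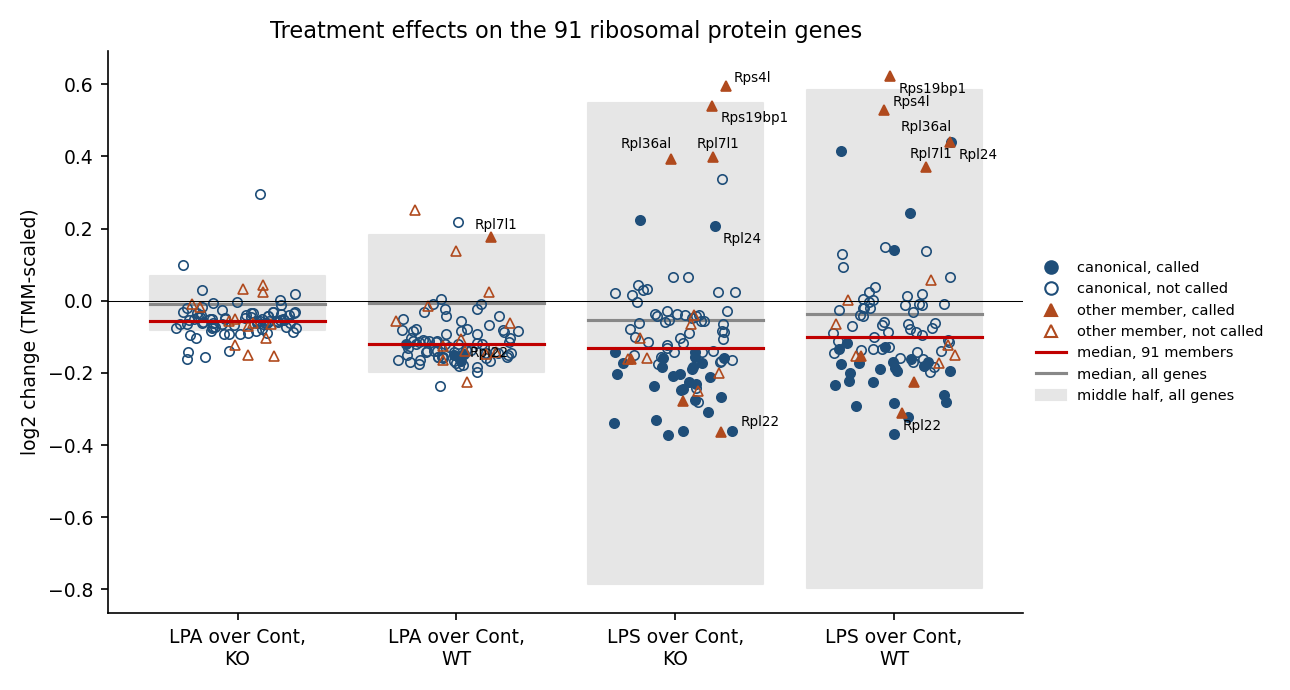
Log2 changes of the 91 members (y axis, TMM-scaled) for LPA and LPS over untreated cells in KO and WT (x axis); circles are canonical genes, triangles other members, filled where the adjusted p is below 0.05. Red lines are the members' medians, grey lines and bands the median and interquartile range of all genes; with LPS 90 of 91 members lie inside that range in each genotype.

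LPS changed more ribosomal protein genes, again by small amounts for a treatment that moved most of the transcriptome. In KO cells 36 members passed (39.6%, with 6 higher and 30 lower), against 82.3% of all genes (39.3% higher and 43.0% lower). In WT cells 34 members passed (37.4%, with 8 higher and 26 lower), against 84.2% of all genes (40.6% higher and 43.6% lower). The changes of 82.4% of members in KO and 85.7% in WT were smaller than 0.25 on the log2 scale, against 22.3% and 21.1% of all genes. The members' effects in the 2 genotypes, which share no library, were alike in order (Spearman's rho 0.88, Pearson's r 0.94 over 91 genes, as a description): 27 members passed in both, 21 lower and 6 higher, and none in opposite directions. No member's LPS effect differed between genotypes by edgeR or DESeq2, nor did any gene of the table by edgeR (DESeq2: 0.147% of all genes), and 1 member had an unadjusted p below 0.05. The count moved to 23 without KO Cont replicate 1 in KO, and to 21, 19 and 16 in WT without WT LPS replicate 1, WT Cont replicate 3 and WT LPS replicate 4. Median-ratio factors gave 23 in KO (6 higher and 17 lower, against 82.4% of all genes) and 24 in WT (10 higher and 14 lower, against 84.2%). Without the 3 KO replicate 2 libraries 45 passed in KO (6 higher and 39 lower, against 80.8% of all genes) and 45 in WT (10 higher and 35 lower, against 85.0%). Library totals gave 86 in each genotype, all lower (86.8% of all genes called in KO and 88.3% in WT), because the median of all genes then lies far below 0.

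Among the falls, that of Rpl22 had the smallest adjusted p in both genotypes. It encodes a large subunit protein that is dispensable in most mouse tissues and that represses its paralog Rpl22l1 (chromosome 4, 152324436 to 152334082). Its level was 112.5, 100.5, 102.9 and 99.6 CPM in KO LPS libraries, against 136.3, 127.3, 134.4 and 135.4 CPM in untreated KO libraries. In WT it was 95.5, 100.8, 104.8 and 94.4 CPM with LPS, against 125.6, 129.5, 132.1 and 123.6 CPM untreated. No LPS library reached the lowest untreated one in either genotype. The log2 change was -0.36 ± 0.057 in KO (edgeR, adjusted p = 3.6e-06) and -0.37 ± 0.056 in WT (edgeR, adjusted p = 1.8e-06).

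Rpl13a encodes a protein that, in human monocytes, leaves the ribosome after interferon and silences inflammatory mRNAs. It had 262.9, 223.3, 234.0 and 243.8 CPM in KO LPS libraries, against 333.7, 253.9, 300.4 and 323.5 CPM in untreated KO libraries. In WT cells it had 238.3, 240.8, 271.1 and 231.2 CPM with LPS, against 287.2, 322.3, 324.6 and 291.3 CPM untreated. The groups did not overlap in WT, while in KO the untreated replicate 2 lay among the LPS values. The change was -0.33 ± 0.082 in KO (edgeR, adjusted p = 7.9e-04) and -0.32 ± 0.081 in WT (edgeR, adjusted p = 9.1e-04). Without the KO replicate 2 libraries the changes in KO were -0.37 for Rpl13a and -0.37 for Rpl22, and both passed (edgeR, adjusted p = 4.3e-05 and 1.2e-05).

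Further falls in both genotypes were found for Rpl3 (-0.36 in KO and -0.28 in WT), which lines the peptidyl transferase centre, and Rpl12 (-0.37 and -0.26), which sits at the base of the stalk. Rpl32 (-0.31 and -0.29), Rpl10a (-0.34 and -0.22) and Rps15 (-0.24 and -0.23) also fell in KO and WT. In KO, Rpl3, Rpl12 and Rpl10a passed without the replicate 2 libraries too, at -0.40, -0.36 and -0.36. The Rpl32 call in WT was lost without WT LPS replicate 1 or 4 or WT Cont replicate 3 (edgeR, adjusted p = 0.0523 to 0.0633). Rpl12, Rpl3 and Rpl32 overlap genes on the opposite strand, and those fell more: Lrsam1 by -1.51 in KO and -1.35 in WT, Syngr1 by -1.58 and -1.77 and Cand2 by -1.19 ± 0.498 and -1.21 ± 0.435 (edgeR, SE). Other such overlaps went otherwise. Kank3 changed by -1.53 in KO and -1.75 in WT beside Rps28 at -0.055 and -0.17. Trappc4 changed by 0.91 and 0.98 beside Rps25 at 0.021 and 0.023 (edgeR). Whether the counting used strand is not given in the sources used here, so reads of such a pair cannot be told apart. By subunit, 17 of 46 large and 10 of 31 small subunit genes fell in KO, and 15 and 8 in WT.

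Of the members that were higher with LPS, 4 of 6 in KO and 4 of 8 in WT were not canonical subunits. Other non-canonical members were lower: Rpl32l fell by -0.36 in KO and -0.31 in WT, and Rps27l also fell in both genotypes. In WT the Rpl32l call was lost without WT LPS replicate 1 or 4 (edgeR, adjusted p = 0.0571 and 0.0555). That of Rps27l was lost there without WT LPS replicate 3 (edgeR, adjusted p = 0.0649). In KO the Rps27l call was lost in several settings, among them median-ratio factors (edgeR, adjusted p = 0.0542). Rps19bp1, Rps4l, Rpl36al and Rpl7l1, with the canonical Rpl24 and Rpl27, rose in both genotypes on the TMM scale. By library totals Rpl36al, Rpl24 and Rpl7l1 turned negative in both genotypes, Rpl27 did too, and Rps4l in WT, while Rps19bp1 (0.045 in KO and 0.068 in WT) and Rps4l in KO (0.099) no longer passed. These are therefore rises relative to the median gene. Rpl7l1 had 106.6, 100.8, 103.9 and 107.2 CPM in KO LPS libraries, all above the untreated KO values given above. In WT LPS libraries it had 107.1, 100.9, 96.8 and 98.6 CPM, also all above the untreated WT values. The change was 0.40 ± 0.045 in KO (edgeR, adjusted p = 2.6e-08) and 0.37 ± 0.044 in WT (edgeR, adjusted p = 4.8e-08), and 0.45 in KO without the replicate 2 libraries (edgeR, adjusted p = 6.2e-08).

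Rpl36al, the paralog of the X-linked Rpl36a, lies on chromosome 12 (69182734 to 69184067). All of its coding 51-base stretches also occur in annotated genes other than Rpl36a. Rpl36al had 66.6, 55.6, 63.5 and 68.4 CPM in KO LPS libraries, against 52.4, 45.5, 45.7 and 49.7 CPM in untreated KO libraries. In WT it had 63.6, 65.0, 67.3 and 61.5 CPM with LPS, against 48.9, 49.9, 46.8 and 43.9 CPM untreated. The groups were separate in both genotypes, and the change was 0.39 ± 0.070 in KO (edgeR, adjusted p = 2.1e-05) and 0.44 ± 0.068 in WT (edgeR, adjusted p = 2.5e-06). Mgat2, whose annotated start lies 74 bases away on the opposite strand, changed by 0.52 ± 0.051 in KO and 0.58 ± 0.050 in WT (edgeR, both called), and its part in the Rpl36al counts was not tested.

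Rps19bp1, at low levels, had 13.5, 13.6, 12.7 and 13.5 CPM in KO LPS libraries, against 9.04, 10.0, 9.90 and 7.71 CPM in untreated KO libraries. In WT it had 15.3, 13.9, 13.7 and 12.9 CPM with LPS, against 10.3, 9.10, 7.92 and 8.89 CPM untreated. The groups did not overlap, and the change was 0.54 ± 0.114 in KO (edgeR, adjusted p = 1.4e-04) and 0.62 ± 0.106 in WT (edgeR, adjusted p = 9.7e-06). Its coding sequence shared no 51-base stretch with another gene. The unshared part was 85.6% for Rps4l, 78.7% for Rpl7l1, 0.7% for Rpl24 and 0.0% for Rpl36al and Rpl27.

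Rpl24, a large subunit protein that reaches towards the small subunit and is mutated in the belly spot and tail mouse, had 24.8, 24.4, 22.4 and 23.7 CPM in KO LPS libraries, against 21.3, 20.2, 19.8 and 21.1 CPM untreated. In WT it had 25.1, 25.7, 27.2 and 22.9 CPM with LPS, against 17.9, 18.7, 20.3 and 17.5 CPM untreated. The change was 0.21 ± 0.073 in KO (edgeR, adjusted p = 0.0126) and 0.44 ± 0.069 in WT (edgeR, adjusted p = 3.2e-06), and its difference of -0.23 ± 0.10 (KO minus WT) did not pass (edgeR, adjusted p = 0.761). Rpl27 rose by 0.23 and 0.24 in KO and WT. Rps4l, at 3.63 ± 0.729 CPM with LPS, against 2.40 ± 0.570 CPM untreated in KO, and 3.38 ± 0.923, against 2.34 ± 0.641 CPM in WT (SD, n = 4 each), rose by 0.59 and 0.53 at 29 or more counts per library. The Rps4l call was lost in KO without the replicate 2 libraries (edgeR, adjusted p = 0.0674), KO Cont replicate 2 (edgeR, adjusted p = 0.0796) or KO LPS replicate 3 (edgeR, adjusted p = 0.109). It was lost in WT without WT Cont replicate 1 or 4 or WT LPS replicate 3 or 4 (edgeR, adjusted p = 0.058 to 0.113) and in WT with the compared groups alone (edgeR, adjusted p = 0.0568). Rps23 and Rpl19 rose in WT, by 0.42 and 0.14, and did not pass in KO. The Rps23 call was lost after thinning (edgeR, adjusted p = 0.0779) and without WT Cont replicate 1, 3 or 4 or WT LPS replicate 2 or 3 (edgeR, adjusted p = 0.0565 to 0.0807). By library totals both turned negative in WT, at -0.14 and -0.42.

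**Figure D5:**
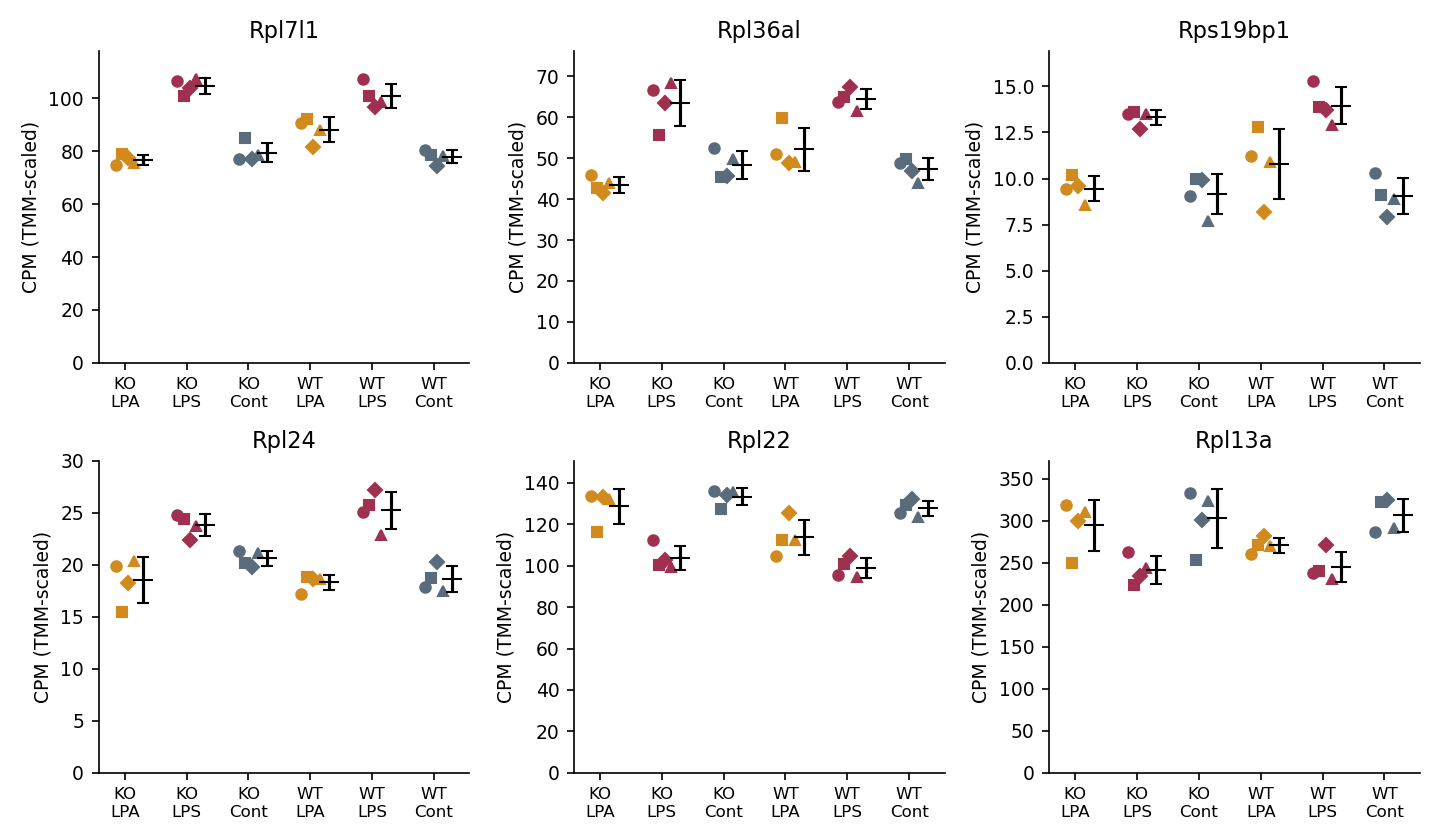
Levels of 6 members (y axes, TMM-scaled CPM from 0) in each library by group (x axes; symbols mark replicates as in the share plot, bars are mean ± SD). Rpl7l1, Rpl36al, Rps19bp1 and Rpl24 lie higher with LPS than untreated in both genotypes and Rpl22 and Rpl13a lower on this scale (Rpl7l1, Rpl36al and Rpl24 turn negative by library totals), while Rpl7l1 lies higher with LPA in WT, with all LPA libraries at 81.5 CPM or more.

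Members with a shared role did not all pass together. Of the stalk proteins RPLP0, RPLP1 and RPLP2, which recruit the elongation factors, only Rplp0 passed with LPS, in WT (-0.13 ± 0.058, edgeR, adjusted p = 0.048), and with median-ratio factors it did not (edgeR, adjusted p = 0.137). Nor did it pass without any 1 of 7 of the 8 libraries, WT LPS replicate 3 being the exception (edgeR, adjusted p = 0.0517 to 0.133). Rplp1 had a change of -0.17 in both genotypes and Rplp2 changes of -0.10 in KO and -0.040 in WT, none of which passed. Without the KO replicate 2 libraries all 3 stalk genes passed downward in KO (edgeR, adjusted p = 0.0331, 0.00428 and 0.0191), and Rplp1 passed in WT (edgeR, adjusted p = 0.0477), as it did there in a fit of the 2 groups alone (edgeR, adjusted p = 0.00521). Rpl5 and Rpl11, whose proteins join the 5S RNA and can hold back the p53 regulator MDM2, lay close to the threshold in both genotypes. With LPS Rpl5 fell in KO (-0.20 ± 0.077, edgeR, adjusted p = 0.0189) and had -0.13 in WT, while Rpl11 fell in WT (-0.19 ± 0.083, edgeR, adjusted p = 0.0415) and had -0.17 in KO. The differences between genotypes were -0.075 ± 0.108 for Rpl5 and 0.019 ± 0.120 for Rpl11 and did not pass. With median-ratio factors neither gene passed (edgeR, adjusted p = 0.0536 for Rpl5 in KO and 0.091 for Rpl11 in WT). The Rpl5 call was lost without KO Cont replicate 1 or 4 or KO LPS replicate 2 (edgeR, adjusted p = 0.0574 to 0.066), and the Rpl11 call without WT LPS replicate 1, 2 or 4 or WT Cont replicate 2 or 3 (edgeR, adjusted p = 0.0618 to 0.156). Rpl11 also fell in KO with the replicate block, which the libraries pair there (edgeR, adjusted p = 0.0149), and without the KO replicate 2 libraries (edgeR, adjusted p = 0.0312).

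Members with described roles outside the ribosome varied in the same narrow range. Rps19, mutated in human Diamond-Blackfan anaemia, fell with LPS by -0.21 in KO and -0.20 in WT (edgeR, adjusted p = 0.0209 and 0.0239), but did not pass with median-ratio factors (edgeR, adjusted p = 0.056 and 0.0569). The call was lost in KO without KO Cont replicate 1 or KO LPS replicate 2 (edgeR, adjusted p = 0.0836 and 0.0865), and in WT without WT LPS replicate 1 or 4 or WT Cont replicate 3 (edgeR, adjusted p = 0.0662 to 0.0751). Rpsa, the laminin receptor protein, fell in KO (-0.25 ± 0.094, edgeR, adjusted p = 0.0187) and had -0.20 ± 0.093 in WT (edgeR, adjusted p = 0.0526). The KO call was lost without KO Cont replicate 1 or 4 or KO LPS replicate 2 (edgeR, adjusted p = 0.0547 to 0.0771). Rps3, whose protein can bind the NF-kB subunit p65, had -0.16 in KO and -0.14 in WT, and only the change in KO passed (edgeR, adjusted p = 0.0423). That call was lost without the KO replicate 2 libraries (edgeR, adjusted p = 0.0505), with median-ratio factors (edgeR, adjusted p = 0.118) and without KO Cont replicate 1 or 4 or KO LPS replicate 2 or 3 (edgeR, adjusted p = 0.082 to 0.173). In WT Rps3 passed in a fit of the 2 groups alone (edgeR, adjusted p = 0.0222), after thinning (edgeR, adjusted p = 0.0479) and without the KO replicate 2 libraries (edgeR, adjusted p = 0.0217). Rps6, the substrate of S6 kinase, had 0.016 in KO and 0.094 in WT, and Rps27a, which is made as a fusion to ubiquitin, had -0.041 and 0.013, none of which passed.

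For 5 like-named paralogs the count ratio to the partner was followed, a measure in which library scaling cancels. Over 7 comparisons this gave 35 exact two-sided permutation tests, none of which passed after Benjamini-Hochberg adjustment (smallest adjusted p = 0.143), since 4 libraries against 4 cannot go below p = 0.0286. Rpl36al had a log2 ratio to Rpl36a of 2.17 ± 0.175 with LPS, against 1.5 ± 0.114 untreated in KO, and 2.12 ± 0.050, against 1.60 ± 0.137 in WT (SD, n = 4 each, exact p = 0.0286 for each genotype). The Rpl7l1 ratio to Rpl7 was -1.44 ± 0.074 with LPS, against -1.86 ± 0.132 untreated in KO, and -1.52 ± 0.122, against -1.92 ± 0.113 in WT, again at the smallest possible exact p of 0.0286. With LPA in WT the Rpl36al ratio was 1.84 ± 0.097, against 1.60 ± 0.137 untreated (exact p = 0.0286), and in KO 1.52 ± 0.189, against 1.5 ± 0.114 (exact p = 0.857). Rpl22l1 to Rpl22 was higher with LPS in WT by 0.44 without overlap (exact p = 0.0286) and by 0.11 in KO (exact p = 0.343), where it was higher in 4 of 4 same-numbered pairs. Rpl22l1 itself had log2 changes of 0.058 ± 0.163 in WT and -0.25 ± 0.175 in KO that did not pass, but in KO it passed downward with the replicate block (edgeR, adjusted p = 0.00528) and in a fit of the 2 groups alone (edgeR, adjusted p = 0.0295). The Rps27l ratio to Rps27 overlapped between groups in all 7 comparisons, and with LPA in WT it was higher in 4 of 4 same-numbered pairs, as was Rpl7l1 to Rpl7 (exact sign-flip tests of 4 pairs cannot go below p = 0.125). Rps4l to Rps4x was separate in KO with LPS alone, higher by 0.76.

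Between genotypes, untreated KO and WT cells did not differ in any member by edgeR or DESeq2 (0.00863% of all genes were called, and 1 member had an unadjusted p below 0.05). Member changes ran from -0.21 to 0.18, with a median of 0.019. With LPS no member passed by either tool, against 2.85% of all genes by edgeR, and no member had an unadjusted p below 0.05. With LPA 3 members passed (3.30%, against 50.3% of all genes): Rpl22 was higher in KO by 0.18 ± 0.056 (edgeR, adjusted p = 0.0101), and Rpl36al and Rpl7l1 were lower by -0.26 ± 0.069 and -0.20 ± 0.045 (edgeR, adjusted p = 0.00355 and 8.3e-04). The Rpl22 level was 133.6, 116.2, 133.0 and 132.5 CPM in KO LPA libraries, against 104.5, 112.6, 125.3 and 112.6 CPM in WT LPA libraries, so KO replicate 2 alone lay within the WT range. The Rpl22 call was lost without WT LPA replicate 1 (edgeR, adjusted p = 0.0521) and in a fit of the 2 groups alone (edgeR, adjusted p = 0.0613), as well as with the replicate block (edgeR, adjusted p = 0.0732), although the numbers do not pair these libraries. Of the 91 members 80 had a value above 0, with a median of 0.078. Without WT LPA replicate 3 the count was 6, without KO LPA replicate 2 it was 21, and without all 3 KO replicate 2 libraries it was 37 (35 higher and 2 lower, against 51.8% of all genes). Library totals gave 40, all higher, against 53.7% of all genes and with their median at 0.11. Depth and lane go with genotype here, and their part was not tested.

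Other lists of the translation machinery were counted in the same fit, with no test between lists. Beside the LPS counts stand the shares of all genes called, 82.3% in KO and 84.2% in WT, and beside the LPA counts 44.6% in WT, 2.62% in KO and 28.5% for the difference. Of the ribosomal proteins outside the symbol rule, Fau and Rack1 passed in no treatment comparison (with LPS -0.042 and -0.046 in KO and -0.078 and -0.015 in WT). Of 29 initiation factors 22 rose and 3 fell with LPS in each genotype, with a median of 0.69 in KO and 0.65 in WT (0.20 and 0.090 by library totals). Eif4g2 (1.98 in WT), Eif1a (1.49) and Eif2s1 (1.24), the alpha subunit of eIF2, were among them. With LPA 17 rose and 2 fell in WT, led by the cap-binding Eif4e (0.75 ± 0.112, edgeR, adjusted p = 2.9e-05), and none passed in KO. The LPA effect differed between genotypes for 16 of the 29, 1 higher and 15 lower in KO minus WT, and Eif4e differed by -0.84 ± 0.165 (edgeR, adjusted p = 0.00108). Of 9 elongation factors 3 rose and 6 fell with LPS in each genotype, with Eef2 at -0.49 and Eef1a1 at -0.24 in WT. Among 21 further genes with TOP mRNAs, 7 rose and 9 fell with LPS in KO and 7 rose and 8 fell in WT, with medians of -0.056 and -0.053.

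Members with and without a pyrimidine run near the annotated start had similar median changes in WT, while with LPS in KO the median was lower with a run. With LPS the 49 with a run had a median of -0.15 in KO and -0.10 in WT, and the 16 without one -0.084 and -0.095. Of the 16 without a run 4 rose and 4 fell in each genotype, and of the 49 with one 1 rose and 22 fell in KO and 3 rose and 18 fell in WT. Of all genes 39.3% rose and 43.0% fell in KO, and 40.6% rose and 43.6% fell in WT. Rpl24, Rpl27, Rpl7l1 and Rps19bp1, whose starts are shown above, were the 4 that rose without a run. With LPA in WT the medians were -0.12 with a run and -0.13 without. Between the 2 classes no test was made.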

How the data were processed

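Whole-number counts per gene were used as deposited in 1 table of 24 libraries. STAR 2.5.2a and mm10 are named in the submitters' processing notes, while no source used here names the counting tool, its strand setting or its treatment of multiply matching reads. No column was left unused. The members and gene lists were chosen with earlier results of these data known. Counts were tested in edgeR 4.0.16 (limma 3.58.1, R 4.3.3) with TMM factors in 1 model of 6 group means (18 residual degrees of freedom) over all 11590 genes, with Benjamini-Hochberg adjustment within each of 9 comparisons and calls at an adjusted p below 0.05. filterByExpr removed no gene. The fit was tested on simulated counts, where it recovered most large changes but a minority of the smallest. In every comparison the text could name up to 6 rises and 6 falls with the largest change among called members, and always the role groups, paralogs and copies. Paralog ratios used counts plus 0.5. Alternatives were DESeq2 1.42.0, median-ratio factors, library totals, other filters (none, or 50 counts in 4 libraries), the compared groups alone, thinning to 15167683 counts, each library left out, and a replicate block. The block was fitted to the compared groups alone, so it changed both the libraries and the design. Same-numbered libraries were taken to deviate together where correlations of log-CPM deviations were above 0.1 in all 4 pairs. This held for LPA in WT (0.211 to 0.626), LPA in KO (0.280 to 0.772) and LPS in KO (0.196 to 0.511). It did not hold for LPS in WT, where all were positive (0.094 to 0.264), or between genotypes. The 36 replicate pairs had a chi-square per degree of freedom of 4.09 to 77.2, so none was a copy. Leaving out the 3 KO replicate 2 libraries was added after seeing the data. Promoters came from RefSeq (65 of 91 members), positions from RefSeq GRCm38.p6 and, for printed coding sequences, GENCODE vM21. Sequence sharing compared 51-base stretches of each member's coding sequence with all GENCODE transcripts, on both strands. Values of a few single genes are not reported here, although counts over the members include them.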

Additional observations from a re-analysis of the deposited data

Results flagged for a closer look

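The LPA effect differed between the genotypes (KO minus WT) for Rpl7l1, by -0.227, and for Rpl36al, by -0.289, by the edgeR test of the difference itself.

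In 12 of 204 checks of a named member within a group of 4 libraries, 1 library lay so far from the others that its gap, as a share of the group's range, exceeded the 95% critical value of Dixon's test. The checks share libraries and are not independent, so their number cannot be judged against the 1 in 20 of independent checks. KO LPA replicate 2 was the low library for Rpl22 (gap 0.936 of the range; 116.2 CPM, against 132.5 to 133.6 in the other 3), Rpl12 (0.914), Rpl5 (0.880) and Rpl36a (0.872). WT LPA replicate 3 was high for Rpl10a (0.951) and low for Rps23 (0.913), and WT LPA replicate 1 was low for Rpl24 (0.864). WT Cont replicate 3 was high for Rpl36a (0.900) and low for Rplp2 (0.847), and WT Cont replicate 2 was high for Rps23 (0.871). WT LPS replicate 3 was high for Rplp0 (0.841), and KO LPS replicate 3 was high for Rps4l (0.845).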

How the results depend on the processing

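For LPA in WT, where 5 members passed, 2 passed with median-ratio factors, 8 with DESeq2, 23 in a fit of the 2 groups alone, 31 without the KO replicate 2 libraries, 35 with library totals and 43 with the replicate block, also fitted to the 2 groups alone. For LPA in KO 1 passed with the block and 0 otherwise. For LPS in WT (34) library totals gave 86 and the block 55. Same-numbered libraries there had correlations of 0.094 to 0.264, not all above the 0.1 used as the rule for pairing. For LPS in KO (36) totals gave 86 and median-ratio factors 23. KO against WT with LPA (3) gave 40 with totals and 37 without the KO replicate 2 libraries, and the difference in LPA effect (2) gave 0 with totals and 4 with the block. With 1 library left out, the counts ran from 1 to 13 for LPA in WT, 23 to 52 for LPS in KO, 16 to 40 for LPS in WT, 2 to 21 for KO against WT with LPA and 1 to 2 for the difference in LPA effect, and stayed at 0 for the 4 other comparisons and for the paralog ratios. Other settings moved these counts by no more than 1.5 times. By library totals, log2 changes with LPS turned negative in WT for Rps4l (-0.032), Rpl36al (-0.115), Rpl24 (-0.119), Rps23 (-0.141), Rpl7l1 (-0.183), Rps6 (-0.464), Rpl22l1 (-0.502), Rps27a (-0.544) and Rpl34-ps1 (-0.556), and in KO for Rpl7l1 (-0.095), Rpl36al (-0.100), Rpl27 (-0.272), Rpl24 (-0.290) and Rps6 (-0.479), because that scale puts the median gene near -0.6 and -0.5. No other member named by the rule in processing reversed, while outside it Rpl27 and Rpl19 did in WT. Without the 10 most abundant other genes the summed share was 1.55%, 1.00% and 1.57% in KO (LPA, LPS, Cont) and 1.36%, 0.955% and 1.55% in WT. With the block LPS in KO gave 46 calls, 35 of them among the 36, and KO against WT with LPA gave 2, losing Rpl22. Depth was lower in KO, and what it meant for small differences between genotypes was not tested.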

Other observations

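Of 20 regulators of mTORC1 and of TOP mRNAs, 9 rose and 11 fell with LPS in each genotype, where 82.3% of all genes in KO and 84.2% in WT were called. No test against the ribosomal protein genes was made. Larp1, which binds TOP mRNAs, rose with LPS in WT by 2.14 ± 0.088 and Larp4 by 0.87 ± 0.061, while Eif4ebp2 fell by -1.58 ± 0.106 and Tsc1 by -0.72 ± 0.045 (edgeR, adjusted p = 4.3e-16, 5.3e-12, 2.3e-12 and 5.7e-13). From the elongation factor list, Eef2k, the kinase that inhibits elongation factor 2, fell with LPS in WT by -3.60 ± 0.126 (edgeR, adjusted p = 4.2e-17). With LPA in WT 8 of the 20 rose and 5 fell, beside 44.6% of all genes called, among them Larp1 (0.64 ± 0.085, edgeR, adjusted p = 5.8e-06) and Deptor (-1.43 ± 0.233, edgeR, adjusted p = 8.2e-05), and both LPA effects differed between genotypes, by -0.80 ± 0.121 and 1.48 ± 0.325 (KO minus WT, edgeR, adjusted p = 1.1e-04 and 0.00282).

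Of 15 chaperones and importers of ribosomal proteins, 9 rose and 4 fell with LPS in KO and 8 rose and 5 fell in WT, again beside 82.3% and 84.2% of all genes called. Ltv1, a small subunit assembly factor, rose in WT by 1.58 ± 0.105 and the importin Kpnb1 by 1.04 ± 0.072 (edgeR, adjusted p = 1.9e-12 and 3.7e-12). The median of the list was 0.26 in KO and 0.20 in WT on the TMM scale and -0.24 and -0.35 by library totals.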
